A study of Mus musculus with 3 samples.

Results

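Of 3376 wells kept over 3 single-cell libraries of the adult mouse heart, 65 carried at least 2 of the transcripts Npr3, Vwf and Cytl1 together, and these wells are described here. The 3 transcripts mark endocardium and large-vessel endothelium. A well was kept with at least 1000 counts and 300 detected genes, and it was a member when at least 2 of the 3 transcripts each reached 20 CPM (counts per 1000000 counts of nuclear-encoded mouse genes in that well). Members were also required to stay under 1000 CPM for the macrophage genes Lyz2, C1qa, C1qb and C1qc summed and under 1000 CPM for the fibroblast genes Dcn, Col1a1, Col3a1 and Lum summed. The choice rests on the wells' own transcripts, so every value of Npr3, Vwf and Cytl1 below is a description of what was chosen, and every difference between members and other wells carries no test.

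The libraries were made on the iCELL8 nanowell platform from tamoxifen-treated mice, from hearts taken at day 1, 2 or 3, and each day has 1 library. The day 1 library has the genotype label D1_INO80_OE, the day 2 library D2_INO80_OE, and the day 3 library names both D3_INO80_OE and D3_Ctrl with no record of which well came from which genotype. The series title instead names Myh6-MCM;Ino80fl/fl hearts, and its design text speaks of Ino80 induction; how the title and the genotype labels fit together is not given in the sources used here. The Myh6 promoter drives expression in cardiomyocytes, all 3 libraries share the tamoxifen treatment and the cell type label adult cardiomyocyte, and the day 0 time point of the design text was not analysed here.

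The endocardium is the endothelium that lines the heart chambers, and it is continuous with the endothelium of the great vessels. Npr3 encodes the clearance receptor that removes natriuretic peptides from the circulation, and in the adult mouse heart it is a classical endocardial transcript. Vwf encodes von Willebrand factor, the adhesive glycoprotein that large-vessel and endocardial endothelium stores and releases to bind platelets, and capillaries of the heart hold much less of it. Cytl1 encodes a small secreted cytokine-like protein. Myocardial capillaries, the most numerous endothelium of the heart, are instead equipped for fatty acid uptake, with transcripts such as Gpihbp1, Fabp4 and Cd36.

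The libraries held 452070922 to 487461107 counts, and 18 wells in all were below the limits. Members numbered 30 of 1225 kept wells on day 1 (2.45%, exact binomial 95% interval 1.66 to 3.48), 14 of 1059 on day 2 (1.32%, 0.725 to 2.21) and 21 of 1092 on day 3 (1.92%, 1.19 to 2.92). The 3 intervals overlap. Median depth per member was 243176 counts on day 1, 310915 on day 2 and 517631 on day 3. In capillary-like wells it was 277520, 340745 and 323489 counts, so members were deeper on day 3 only. The mitochondrial share of a member's counts had medians of 40.7%, 44.5% and 19.7%. The lower mitochondrial share on day 3 was also seen in the other wells. Counts are reads without molecular identifiers, so the intervals on shares and CPM cover counting error only. Of the 65 members, 31 had a barcode that was also held by a kept well of another library, and no barcode was shared between members. Such sharing was common over all kept wells: of 2660 distinct barcodes, 586 were found in 2 libraries and 65 in 3. Each day is 1 library, so a difference between days is a difference between libraries.

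Every member also held cardiomyocyte RNA. The summed level of 10 ventricular cardiomyocyte genes was 98110 CPM over the members, 97629 CPM over capillary-like wells and 114139 CPM over the remaining wells, and all 10 genes reached 20 CPM in the median well of each class. Myh6, the cardiac myosin heavy chain, stood at 11337, 10943 and 10347 CPM in the members of days 1, 2 and 3. Its part in the results below was not tested.

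Npr3 (mm10, chr15:11839896-11907287, minus strand, with an exon overlap with Gm5144 on the other strand) had a summed level of 309 CPM (exact Poisson 95% interval 295 to 323) in the day 1 members, 192 (178 to 208) on day 2 and 236 (226 to 246) on day 3. It reached 20 CPM in 22 of 30, 11 of 14 and 12 of 21 members, and the highest well held 1288 CPM. Vwf (chr6:125546774-125686679, plus strand) stood at 501 (483 to 519), 536 (511 to 561) and 300 (289 to 312) CPM and was at 20 CPM or more in 53 of the 65 members. Cytl1 (chr5:37735519-37739820, plus strand) was the most abundant on day 1, at 1350 CPM (1320 to 1379), and stood at 671 (643 to 699) and 417 (404 to 431) CPM on days 2 and 3. The well medians of Cytl1 were much closer together, at 250, 274 and 240 CPM, and the highest day 1 well held 5687 CPM. Outside the members, each of the 3 genes stood at 0.311 to 17.9 CPM in capillary-like wells of the 3 libraries.

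**Figure D1:**
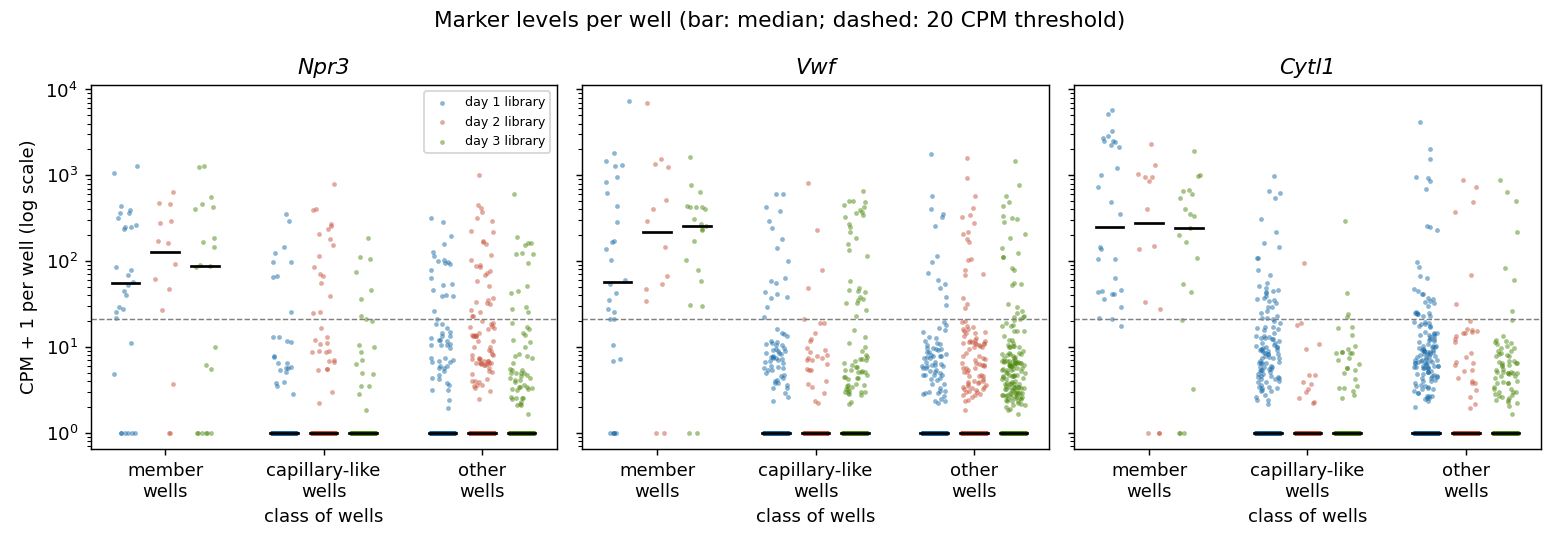
Levels of Npr3, Vwf and Cytl1 per well on a log axis (CPM + 1), for member, capillary-like and other wells of each library. Each point is a well, bars are medians and the dashed line is the 20 CPM limit. Member medians lie between 54.2 and 274 CPM, while the medians of both other classes are 0.

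The 3 transcripts did not always occur together. All 3 reached 20 CPM in 24 members (13, 6 and 5 on days 1, 2 and 3), Npr3 with Vwf alone in 9, Npr3 with Cytl1 alone in 12 and Vwf with Cytl1 alone in 20. Near the limit, the second highest of the 3 markers was at 20.2, 20.4 and 20.8 CPM in the lowest members and at 18.8, 18.4 and 18.1 CPM in the highest wells left out, against a median of 160 CPM over the members. On the ceilings, the highest member stood at 662 CPM for the macrophage genes and 929 CPM for the fibroblast genes. A further 22 wells had the markers but passed a ceiling, 5 of them for macrophage and 17 for fibroblast genes.

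The marker gate was passed by wells over the ceilings as well. It was met by 65 of 2748 wells under both ceilings (2.37%, exact binomial 95% interval 1.83 to 3.01), by 5 of 251 wells over the macrophage ceiling (1.99%, 0.650 to 4.59) and by 17 of 390 wells over the fibroblast ceiling (4.36%, 2.56 to 6.89). With the limit raised to 100 CPM the shares were 1.46%, 1.20% and 2.82%, and their intervals still overlapped. Of the 17 fibroblast-rich wells past the gate, 12 had at least 5 of 18 pan-endothelial genes at 20 CPM, against 88 of all 390 wells over that ceiling. Of the 5 macrophage-rich ones, 3 did, against 30 of all 251. The numbers are small and the difference was not tested. The intervals of the gate shares thus overlap between classes that were and were not set aside for another cell type's genes, and the part of RNA from outside the captured cell in passing the gate was not tested.

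The cell type label was met in part. Of the 65 members, 39 had at least 5 of the 18 pan-endothelial genes at 20 CPM, and the median member had 5. The median was 6 in capillary-like wells, where 657 of 993 had at least 5, and 2 in the other wells, where 259 of 1690 did. Capillary-like wells are kept wells under the same ceilings that are no members and have at least 2 of Gpihbp1, Rgcc, Cd300lg and Btnl9 at 100 CPM; the other wells are the 1690 that remain under both ceilings. Members with all 3 markers met the 5-gene count in 16 of 24 wells, those with Vwf and Cytl1 in 13 of 20, those with Npr3 and Cytl1 in 6 of 12 and those with Npr3 and Vwf in 4 of 9. Among the 17 members whose second marker lay between 20 and 50 CPM the count was met in 7, and among the other 48 in 32. The remaining 26 members are called members here by the rule alone. In addition, 17 of the 65 members (11, 1 and 5 on days 1, 2 and 3) passed the capillary gate as well. Of the non-members under the same ceilings, 993 passed it, which makes them the capillary-like wells, and the 1690 other wells did not.

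Ratios were taken within each library from summed CPM with 5 CPM added, and then averaged over the 3 libraries with equal weight; a gene was counted as different when it was at least 2-fold apart on average, in the same direction in all 3 libraries, with a mean of at least 10 CPM. Against the other wells this held for 517 of 6430 genes (8.04%), 198 higher (3.08%) and 319 lower (4.96%). With median-of-ratios scaling the split turned to 309 higher and 171 lower, and with mitochondrial genes in the total to 159 and 134. Median-of-ratios scaling moved the median log2 ratio of all genes from -0.09 to 0.12.

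Against the other wells, the pan-endothelial genes stood higher as a group. The other wells are those left after the capillary-like wells were set apart, so the choice of classes enters this difference. How much of it comes from that choice was not tested. Of 18, 15 could be measured, 14 were above 0 and 10 passed the 2-fold rule, with a median log2 ratio of 1.41 over the 15 measured and 1.21 over all 18, against -0.09 for all genes tested. The median of the 15 was 1.63 with median-of-ratios scaling. Emcn, which encodes the endothelial sialomucin endomucin, stood at 189, 222 and 223 CPM in the members of days 1, 2 and 3. In the other wells it stood at 13.9, 11.2 and 14 CPM, so the groups of libraries did not overlap, and the mean log2 ratio was 3.58. Pecam1, the junctional adhesion molecule CD31, stood at 184, 96.3 and 29.6 CPM in members and at 12.1, 16 and 16.5 in the other wells, a mean log2 ratio of 2.14 that narrowed to 0.68 on day 3. Cdh5, the endothelial cadherin of adherens junctions, had 51.8, 43.6 and 30.6 CPM in members and 18, 17.9 and 13.8 in the other wells (log2 ratio 1.10). Eng (2.16), Mmrn2 (2.14), Tek (1.53), Erg, Icam2 (1.43), Flt1 (1.41) and Ramp2 (1.32) completed the 10, and single wells gave 73.3% of the Eng counts and 87.6% of the Icam2 counts of day 2. Ly6c1, a surface protein of capillary endothelium, was the measured list gene below 0, at -0.51.

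Shares of wells were also compared at a fixed depth. When each well was thinned to 30000 nuclear counts, which left out 1 member, Emcn was detected in 34 of 64 members (53.1%, exact binomial 95% interval 40.2 to 65.7), in 22.8% of capillary-like wells and in 10.2% of the other wells. Without thinning, Emcn reached 20 CPM in 53.8%, 21.9% and 8.22% of these classes. Vcam1 was detected in 29 of 64 thinned members (45.3%, 32.8 to 58.3), in 6.15% of capillary-like wells and in 4.78% of the other wells, and in 14.2% and 22.1% of the wells over the macrophage and fibroblast ceilings. Cdh5 was detected in 37.5% of thinned members and 42.6% of capillary-like wells, with overlapping intervals (25.7 to 50.5 and 39.4 to 45.7).

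Markers that separate the endocardium from vessels were mixed. Of 12 endocardial genes, 6 could be measured against capillary-like wells, where 468 of 6459 genes passed the rule (7.25%), 141 higher (2.18%) and 327 lower (5.06%). Of the 6, 4 were higher by the rule and 1 was below 0 in every library. The median log2 ratio was 1.78 over the 6 measured, 0.79 over all 12 and -0.09 for all genes tested. Against the other wells 6 were measured, 4 higher and 1 lower by the rule. Their median was 1.84, and it was 1.08 over all 12. Plvap, the diaphragm protein of fenestrated and endocardial endothelium, stood at 26.9, 65.4 and 14.2 CPM in members of days 1, 2 and 3 and at 2.24, 1.45 and 0.798 CPM in capillary-like wells. Few members carried Plvap at 20 CPM: 6 of 24 with all 3 markers and 4 of 12 with Npr3 and Cytl1. With Npr3 and Vwf it was 2 of 9, and with Vwf and Cytl1 2 of 20. Cgnl1, a junction-associated protein, stood at 272, 56.6 and 76.7 CPM against 34.1, 44.9 and 20.5, so its day 2 levels were close together. Tmem108 (log2 ratio 2.33) and Cdh11 (1.95), a mesenchymal cadherin, were higher too, and likewise in few wells. Tmem108 was at 20 CPM in 11 of 65 members, and 1 well gave 62.0% of its day 1 counts. Nfatc1, the transcription factor of endocardial cushions, was at 20 CPM in 7 of 65 members and stood at 12.1, 3.03 and 10.8 CPM, against 6.35, 10.5 and 3.49 in capillary-like wells. Hapln1 had no count in any member, which at 3 counts over their summed depth allows up to 0.166 CPM.

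Arterial, venous and lymphatic markers were found in part of the wells. Of 12 arterial genes 4 were measured against capillary-like wells, and 1 was higher by the rule. Their median log2 ratio was 0.84, and it was -0.14 over all 12, against -0.09 for all genes tested. The arterial kinase gene Bmx was at 20 CPM in 11 of 65 members, 4 of 993 capillary-like wells and 2 of 1690 other wells, and its summed level was 15.1, 13.9 and 63.3 CPM in members against 0.265, 0.203 and 0.809 in capillary-like wells. A few wells carried it, since the top well held 69.2%, 93.5% and 72.7% of the Bmx counts of the 3 libraries. Gja4, the arterial connexin 37, stood at 34.4, 7.27 and 19.1 CPM against 2.28, 9.22 and 5.06, and so was not higher on day 2. Of the 8 venous genes 3 were measured against capillary-like wells. Vcam1 and Bgn were higher by the rule, and 1 gene was below 0 in every library. The median log2 ratio was 1.78 over these 3 and 0.20 over all 8. Ackr1, the venular chemokine receptor, had no count in any member. Lyve1, a hyaluronan receptor of lymphatic endothelium and of macrophages, stood at 36.5, 105 and 99.5 CPM, with 91.7% of the day 2 and 88.1% of the day 3 counts in 1 well each. The defining lymphatic genes were almost absent, with Ccl21a at 0, Mmrn1 at 1 count in all and Flt4 in 1 well.

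**Figure D2:**
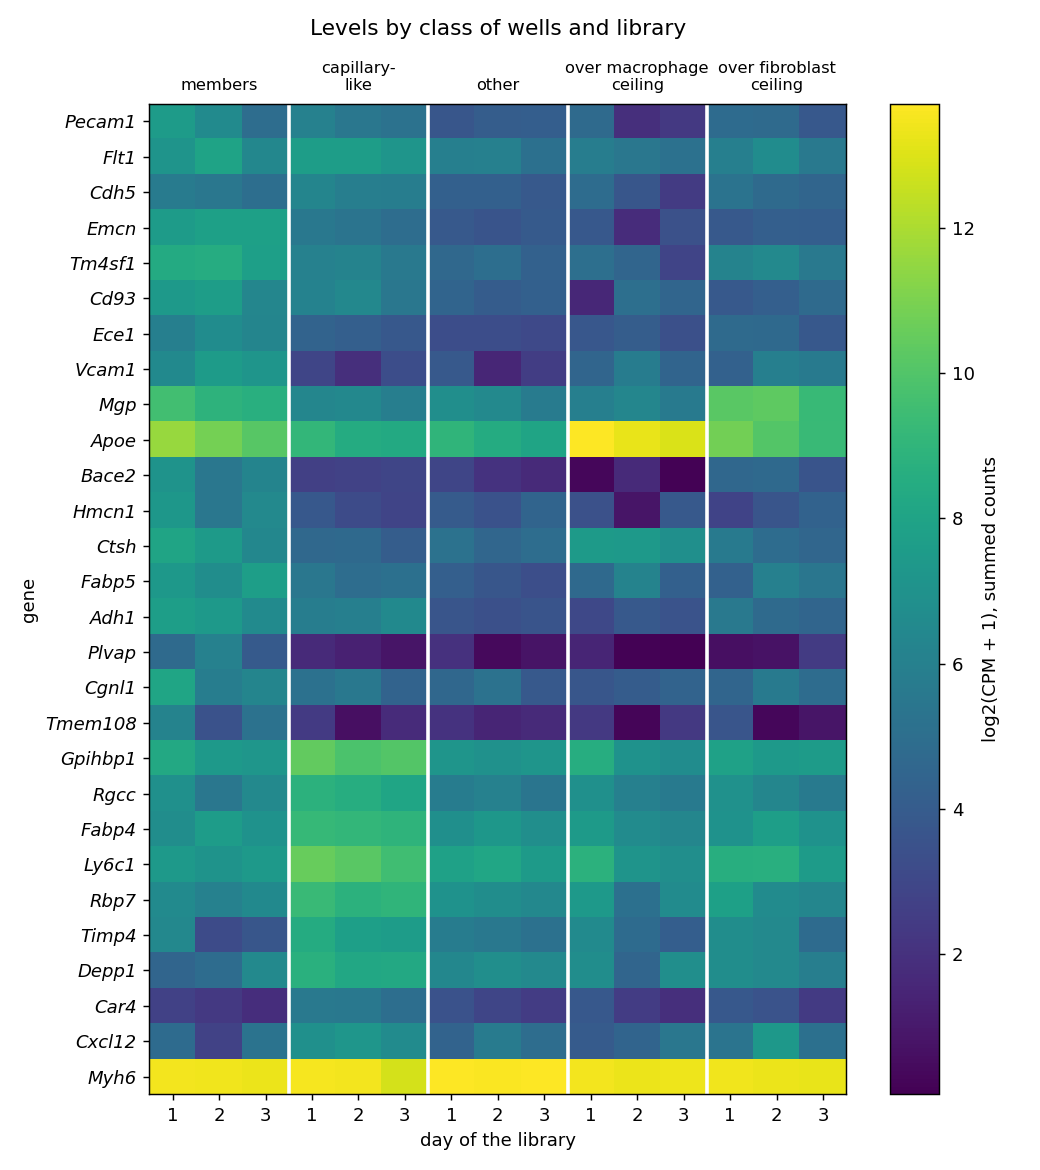
Summed level, log2(CPM + 1), of selected genes in 5 classes of wells by day of the library. Emcn, Tm4sf1 and Vcam1 have higher sums in the members than in capillary-like and other wells, although 35, 41 and 27 of 65 members have them at 20 CPM; capillary-like wells hold more Gpihbp1, Ly6c1, Rbp7 and Timp4, wells over the fibroblast ceiling share Mgp with the members, wells over the macrophage ceiling share Apoe and Ctsh, and Myh6 is high in all.

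Of the other cell types that a well could hold, fibroblast-associated transcripts had a higher summed level in the members than in capillary-like and other wells. Of 9 fibroblast genes outside the ceiling, 4 were measured against capillary-like wells and 2 were higher, Fstl1 (2.20) and Mfap5 (1.89). The median log2 ratio was 0.97 over the 4 and -0.02 over all 9, against -0.09 for all genes tested. The summed level of the list was 445 CPM in members, 242 in capillary-like and 233 in other wells, with well values from 2.38 to 1687 in the members. No gene of that list was at 0. Of 9 macrophage genes 3 were measured and none passed the rule, with summed levels of 99.5, 95.3 and 89.5 CPM in the 3 classes and member wells from 0 to 1984 CPM. The pericyte and smooth muscle list stood at 433 CPM in members, 569 in capillary-like and 542 in other wells, and none of its 7 measured genes passed the rule against capillary-like wells. Platelets hold Vwf as well; their genes summed to 17.7, 18.6 and 15.8 CPM, and Gp1bb and Gp6 were at 0 in the members. Lymphocyte genes summed to 22.2 CPM in members against 5.78 and 10.6, with 1 member at 4766 CPM and a median member at 0, and Schwann cell genes to 20.5 against 7.73 and 13. Neutrophil genes summed to 3.04, 13.9 and 78.9 CPM and erythroid genes to 576, 1594 and 717 CPM. The part of these transcripts in the differences below was not tested.

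Set against capillary-like wells, the genes named as furthest above them in the members are given one by one, as single genes and not as a group. Vcam1 (mm10, chr3:116109949-116129688, minus strand, with an exon overlap with Gm43109 on the other strand), the vascular cell adhesion molecule that leukocytes bind, stood at 91.8 (84.4 to 99.8), 188 (173 to 203) and 147 (139 to 155) CPM in members of days 1, 2 and 3. In capillary-like wells it stood at 6.54, 2.8 and 8.92 CPM, a mean log2 ratio of 3.71, and 27 of 65 members against 52 of 993 capillary-like wells had it at 20 CPM. Every library showed it higher in members, and the lowest member level lay above the highest capillary-like level. In wells over the fibroblast ceiling Vcam1 stood at 18.5, 60.5 and 50.1 CPM. It was the 1 of 4 measured adhesion and inflammatory activation genes past the rule, and the list median was 0.28; against the other wells it was 1 of 3.

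The fixed list of 18 basement membrane and elastic matrix genes was not higher: of 14 measured, 9 were below 0, Mgp and Bgn were higher and Col4a2 was lower by the rule. The list median was -0.36 over the 14 and -0.29 over all 18. Mgp, matrix Gla protein, an inhibitor of calcification and of BMP ligands, stood at 755, 478 and 404 CPM in members against 80.2, 84.5 and 59.5 in capillary-like wells (log2 ratio 2.75), and it reached 20 CPM in 63 of 65 members. In wells over the fibroblast ceiling Mgp stood at 1208, 1297 and 614 CPM. Hmcn1, the basement membrane protein hemicentin, stood at 158, 43.6 and 90.3 CPM against 12.9, 8.13 and 6.27 (2.72), although 1 well gave 82.6% of its day 2 counts. Fstl1, a secreted follistatin-like protein, stood at 142, 261 and 152 CPM against 22.7, 38 and 48.1 (2.20), and at 384, 444 and 534 CPM in the fibroblast-rich wells.

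The fatty acid handling list lay below capillary-like wells: of 5 measured genes Fabp5 was higher and Fabp4 and Tcf15 were lower by the rule. The median was -0.90 over the 5 and -0.64 over the whole list without the gate gene Gpihbp1. Against the other wells Fabp5 was the 1 of 4 measured past the rule, with a median of -0.07 over the 4 and 0.10 over that whole list. Apoe, the lipoprotein ligand, stood at 3159, 1872 and 1164 CPM in members of days 1, 2 and 3 against 544, 351 and 324 in capillary-like wells (log2 ratio 2.25). It stood higher still in wells over the macrophage ceiling, at 13285, 9792 and 7954 CPM. Fabp5, a fatty acid-binding protein, stood at 164, 106 and 210 CPM against 42.9, 29.4 and 32.9 (2.00). Ctsh, a lysosomal cysteine protease, stood at 259, 183 and 82.3 CPM against 24.6, 25.3 and 16.3 (2.61), close to its 182, 176 and 115 CPM in the macrophage-rich wells. Bace2, a membrane aspartyl protease, stood at 134, 43 and 73.9 CPM against 5.37, 5.77 and 6.49 (2.89). Tm4sf1, a tetraspanin-like endothelial surface protein, stood at 342, 359 and 214 CPM against 64.9, 72.2 and 46.9 (2.21).

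Capillary transcripts were below the level of the capillary-like wells, which were chosen for such transcripts, so this difference is a description of the choice. The 4 gate genes are left out of the counts; of the other capillary genes 5 were measured, all 5 were below 0 and 4 passed the rule, with a median log2 ratio of -1.74 over these 5 and -1.44 over the whole list without the gate genes. Car4, a surface carbonic anhydrase of capillaries, stood at 5.48, 3.94 and 2.61 CPM in members against 47.4, 45.7 and 30.8 (log2 ratio -2.35). Fabp4, the fatty acid-binding protein of capillary endothelium, stood at 107, 192 and 131 CPM against 584, 553 and 495 (-1.93), while Cd36, the fatty acid translocase that cardiomyocytes express as well, missed the rule at -0.90. Against the other wells the capillary list was not set apart: 2 of its genes were measured, Fabp4 at 0.13 and Cd36 at -0.26, and none passed the rule. The genes named as furthest below capillary-like wells included Timp4, an inhibitor of metalloproteinases, at 85.2, 8.17 and 12.1 CPM against 347, 215 and 193 (-3.19); Depp1 (-2.99); Adgrl4, an endothelial adhesion G protein-coupled receptor (-2.86); Ly6c1 (-2.75); Rbp7, a retinol-binding protein of capillaries (-2.59); and Cxcl12, the chemokine ligand of CXCR4 (-2.36). Hba-a1 and Hba-a2, the alpha globins, averaged -2.59 and -2.58, and the globin level varied from 11.8 CPM on day 1 to 379 CPM on day 3 for Hba-a1 in members, where 1 well held 95.4% of the day 3 counts.

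Detection at a fixed depth of 30000 nuclear counts gave members shares close to those of the other wells. Timp4 was detected in 16 of 64 thinned members (25%), 66.3% of capillary-like wells and 26.7% of the other wells. For Ly6c1 the shares were 60.9%, 92.6% and 61.6%, and for Rbp7 42.2%, 69.0% and 37.3%. For Gpihbp1, a gate gene, they were 60.9%, 97.9% and 52.2%. Some members also met the capillary gate. Without the 17 members that passed the capillary gate, the number of genes past the rule was 600, and the list median of the capillary genes moved to -2.36. Those 17 were left out for their high capillary gate genes, so the choice of wells enters this lower median. The pan-endothelial list had a median of -0.20 against capillary-like wells, with 2 genes higher (Emcn and Eng) and 3 lower (Kdr, Egfl7 and Ly6c1). That sign was not stable: the median was 0.035 with median-of-ratios scaling. It was 0.14 with the 39 members that had at least 5 pan-endothelial genes. Those 39 were chosen by genes of this list and the capillary-like wells were not, so a rise was built into the choice. The split of 141 higher and 327 lower genes turned to 250 and 168 with median-of-ratios scaling.

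**Figure D3:**
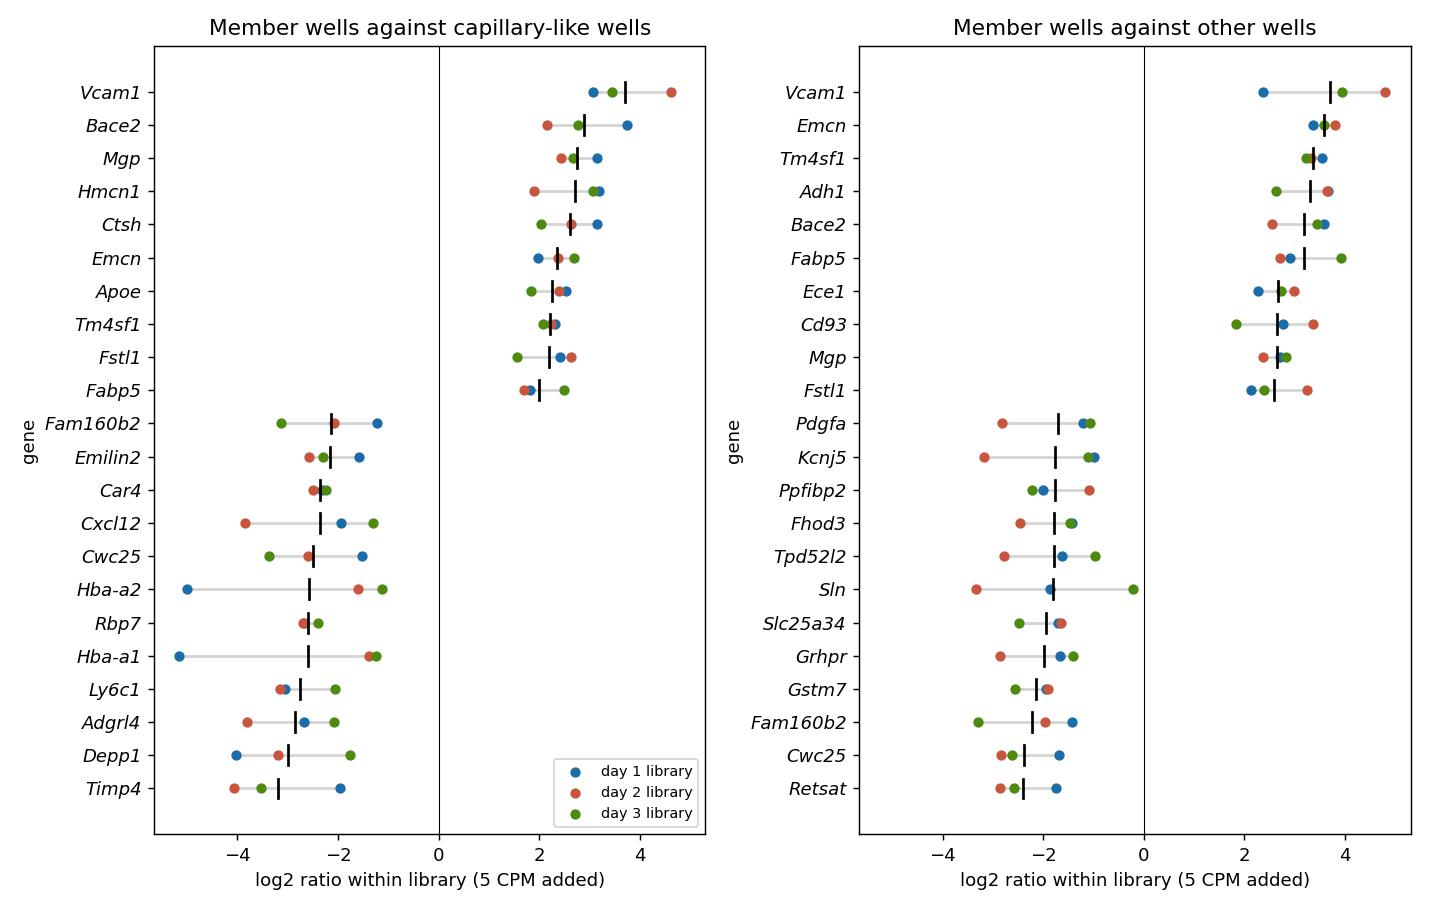
Log2 ratio of summed CPM with 5 CPM added, members against capillary-like wells (left) and against other wells (right), for the genes reported here among the 12 highest and 12 lowest of each comparison. Points are the 3 libraries, bars their mean, and every gene shown lies on 1 side of 0 in all 3; Vcam1 averages 3.71 in both comparisons, and the lower genes against other wells lie nearer to 0 than the higher ones.

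The 12 genes furthest above the other wells shared 9 names with the 12 furthest above capillary-like wells, among them Bace2, Emcn, Fabp5, Fstl1, Mgp, Tm4sf1 and Vcam1. The members are the same in both comparisons, so this overlap is not independent. The other 3 were Adh1, an alcohol dehydrogenase that also oxidises retinol, at 208, 176 and 94.8 CPM against 11.8, 9.58 and 11.1 (log2 ratio 3.31), Ece1, the endothelin-converting enzyme, at 61.6, 104 and 76.3 CPM against 8.76, 8.72 and 7.33 (2.66), and Cd93, an endothelial C-type lectin, at 175, 202 and 78.2 CPM against 21.4, 15.1 and 18.3 (2.65). Adh1 was not set apart from capillary-like wells on day 3, with 94.8 CPM against 91.3 CPM. Among the 12 furthest below the other wells was Sln, sarcolipin, the atrial regulator of the calcium pump, with a mean log2 ratio of -1.81 but -0.22 on day 3. By detection at the fixed depth Sln was not lower, at 71.9% of members (exact binomial 95% interval 59.2 to 82.4) and 63.3% of the other wells (61.0 to 65.7). Fhod3, a formin of the cardiac sarcomere, and Kcnj5, an atrial potassium channel subunit, averaged -1.79 and -1.76. At the fixed depth their intervals overlapped between classes. Fhod3 was detected in 26.6% of members (16.3 to 39.1) and 38.3% of the other wells (35.9 to 40.7). For Kcnj5 the shares were 17.2% (8.90 to 28.7) and 24.9% (22.8 to 27.0).

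Functional groups of endothelium were compared by the same rule. Of 12 coagulation and fibrinolysis genes, 6 besides Vwf were measured, with a median log2 ratio of 0.88 against capillary-like and 1.19 against other wells; over the whole list without Vwf the medians were 0.07 and 0.23, near the -0.09 of all genes tested. Tfpi, the inhibitor of the tissue factor pathway, stood at 60, 70.2 and 126 CPM in members of days 1, 2 and 3, against 33.8, 22.6 and 30.2 in capillary-like and 31.2, 32.7 and 40.8 in other wells. Entpd1, the ectonucleotidase CD39 that degrades ATP and ADP, stood at 44, 55.4 and 55.3 CPM against 25.1, 12.8 and 18.4 in capillary-like wells. These 2 passed the rule against both classes. Thbd, thrombomodulin, stood at 94.5, 70.8 and 17.8 CPM and passed it against the other wells (1.71), while against capillary-like wells it averaged 0.58.

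In the natriuretic peptide list 6 genes besides Npr3 were measured; none of them passed against capillary-like wells, and Corin (-1.09) and Prkg1 (-1.39) were lower than in the other wells. For Nppa, the ligand, the ratios were -0.12 and -0.14. Of 13 VEGF and angiopoietin genes 6 were measured against capillary-like wells, and Kdr (-1.20) and Nrp2 (-1.09) were lower. Against the other wells 4 were measured, and Flt1, Nrp1 and Tek were higher at 1.41, 1.48 and 1.53. Of 15 BMP and TGF-beta genes 7 were measured in either comparison. Eng, a co-receptor, was higher (1.22) and Tgfb2, a ligand, lower (-1.46) than in capillary-like wells. Against the other wells Eng (2.16), Id3 (1.28) and Smad7 (1.02) were higher and Tgfb2 (-1.36) was lower. Of 2 measured Notch genes Notch4 was lower than in capillary-like wells (-1.39), and neither passed against the other wells. Of 11 angiocrine genes Cxcl12 alone was measured, lower than in capillary-like wells (-2.36) and at -0.59 to the other wells. Of the shear-responsive genes 6 were measured against capillary-like wells, with Cav1, the caveolar coat protein, lower (-1.40), and 4 against the other wells, with Klf2 (1.13) and Thbd (1.71) higher. For Klf2, a transcription factor, its ratio to capillary-like wells ran from -0.78 on day 1 to 0.93 on day 3.

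The remaining lists gave the following counts. Of 9 mesenchymal transition genes 3 were measured, Vim, Fn1 and Tgfbi; all 3 passed against the other wells, and Fn1 (1.25) and Tgfbi (1.04) passed against capillary-like wells. Both rest on few wells, since 1 member held 77.0% of the day 1 and 98.6% of the day 2 counts of Fn1, and 98.7% of the day 1 counts of Tgfbi. Of the 9 antigen presentation genes H2-D1 (1.45) and B2m (1.20) passed against the other wells, and none passed against capillary-like wells. In the junction list Cgnl1 passed against both classes, and 9 of the 13 genes were measured in either comparison. Against capillary-like wells Cgnl1 was the 1 gene past the rule and 7 were below 0. The median log2 ratio there was -0.50, over the 9 and over all 13, against -0.09 for all genes tested. Against the other wells 3 were higher by the rule, with a median of 0.01 over the 9 and -0.01 over all 13. None of the measured immediate early and proliferation genes passed in either comparison, which covers 8 and 2 genes.

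Members were not alike among themselves. Npr3 reached 20 CPM in 45 of them (22, 11 and 12 on days 1, 2 and 3) and stayed below in 20 (8, 3 and 9). Between these groups 1089 of 6298 genes (17.3%) were at least 2-fold apart in the same direction in all 3 libraries, 846 higher with Npr3 (13.4%) and 243 lower (3.86%), and the median of all genes was 0.23. With so few wells the count is loose: with the split at 50 CPM of Npr3 it was 984 genes, 602 higher and 382 lower, and it ranged from 1669 without day 2 to 2118 without day 3. Day 2 rests on 3 wells without Npr3.

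Bace2 stood furthest apart. In members with Npr3 it stood at 162, 51.5 and 123 CPM on days 1, 2 and 3 and was at 20 CPM in 20 of 45 wells. In members without Npr3 it stood at 0, 0 and 0.284 CPM and was at 20 CPM in none of 20 wells. By marker combination, it reached 20 CPM in 17 of the 24 wells with all 3 markers, in 2 of 9 with Npr3 and Vwf, in 1 of 12 with Npr3 and Cytl1 and in 0 of 20 with Vwf and Cytl1. Most Bace2 wells were thus wells with all 3 markers. The libraries did not overlap between the Npr3 groups, and the mean log2 ratio was 4.39, or 2.68 with the split at 50 CPM. Tm4sf1 stood at 407, 424 and 303 CPM with Npr3 and at 35.3, 31.3 and 80.9 CPM without (2.92). Plk2, a polo-like kinase, stood at 80.5, 23.2 and 82.1 CPM against 2.86, 0 and 3.97 (3.07), and Eps8, an actin-regulating adaptor, at 38.2, 46.4 and 91.2 CPM against 0.953, 5.52 and 0.568 (3.09). Emcn was set apart on days 1 and 2, at 228 and 259 CPM against 3.81 and 35, and less on day 3, at 249 against 184 CPM.

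The split by Npr3 is a split by a rule gene, and all 20 members without Npr3 hold Vwf and Cytl1 while 24 of the 45 with it hold all 3 markers, so Npr3 and the number of markers cannot be told apart in it. Of the 12 endocardial genes 5 were measured, all 5 were above 0 and 3 passed the rule, with a median log2 ratio of 1.83 over these 5, 1.22 over all 12 and 0.23 for all genes tested. Cgnl1 stood at 316, 62.7 and 114 CPM with Npr3 and at 64.8, 25.8 and 21.6 CPM without, and Tmem108 at 85.3, 12.3 and 58.6 against 7.63, 0 and 1.42. Bmx, the arterial gene, was at 20 CPM in 10 of 45 members with Npr3 and in 1 of 20 without. Pecam1 stood at 186, 104 and 11.9 CPM with it and 175, 58.9 and 55.9 without, and it reached 20 CPM in 21 of 45 and in 14 of 20 wells. Vcam1 was at 20 CPM in 18 of 45 and 9 of 20 wells. Klf2 stood at 37.6, 18.1 and 54.2 CPM with Npr3 and 44.8, 252 and 145 without, but 1 well gave all of the 252 CPM.

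**Figure D4:**
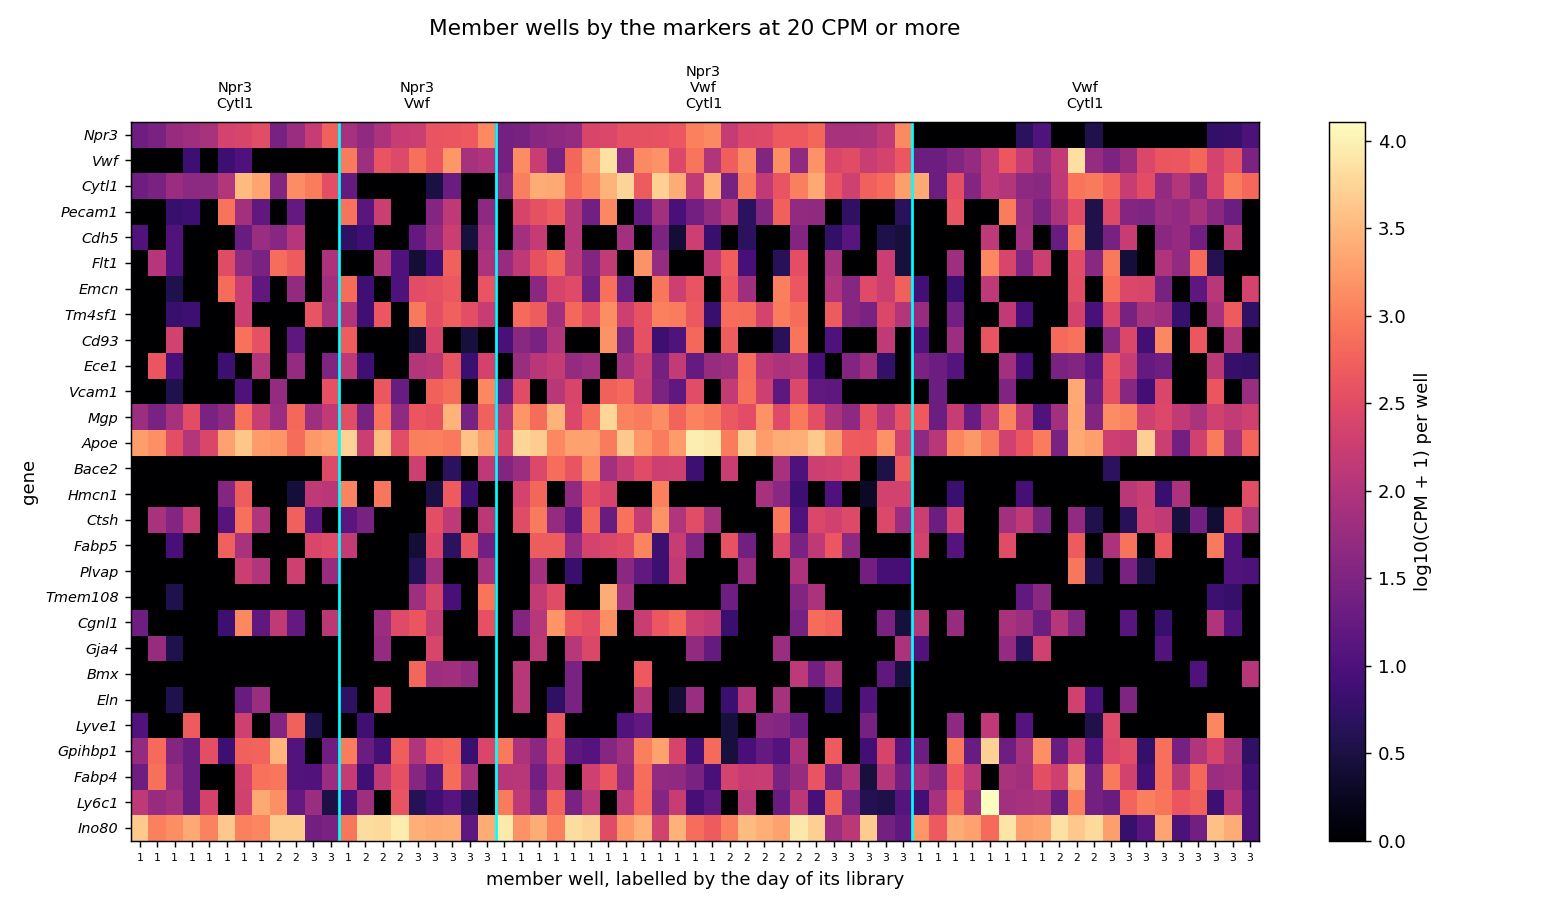
Level per member well, log10(CPM + 1), grouped by which of the markers reach 20 CPM, with the day of the library under each column. Bace2 reaches 20 CPM in 17 of 24 wells with all 3 markers and in 3 of the other 41, Mgp and Apoe are present in nearly every member, and Ino80 and the capillary gene Gpihbp1 are present across all groups.

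Between libraries, members differed in many genes, with few wells in each library. On day 2 against day 1, with 14 and 30 wells, 2908 of 6313 genes (46.1%) were at least 2-fold apart, 1450 higher (23%) and 1458 lower (23.1%). The same ratio in the other wells, with 548 and 514 wells, gave 204 of 6462 genes (3.16%), 154 higher (2.38%) and 50 lower (0.774%). On day 3 against day 1, 2593 genes passed in members (41.9%), 1084 higher (17.5%) and 1509 lower (24.4%), against 5.91% in the other wells (2.74% higher and 3.18% lower). On day 3 against day 2, 2872 passed (47.3%), 1237 higher (20.4%) and 1635 lower (26.9%), against 7.42% in the other wells (1.99% higher and 5.43% lower). With mitochondrial genes in the total the day 3 splits in members turned to 1291 higher and 703 lower against day 1, and to 1407 higher and 890 lower against day 2. Of 5443 genes measured in both classes on days 2 and 1, 1107 were higher and 1165 lower in members. Of these, 59 and 18 were past 2-fold in the same direction in the other wells, where 122 were higher and 33 lower in all. By sign alone, 812 of the 1107 were above 0 and 515 of the 1165 were below 0 in the other wells.

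The gene furthest apart on day 2 was Sln. It stood at 1076, 4.54 and 721 CPM in members of days 1, 2 and 3, at 1763, 61.7 and 697 in capillary-like wells and at 3918, 91.1 and 843 in the other wells. The low day 2 level was therefore seen in all 3 classes, with log2 ratios to day 1 of -6.82 in members and -5.35 in the other wells. Tnnt1, the slow skeletal troponin T, stood at 38 CPM on day 1 and 142 on day 2 in members and at 57.1 and 164 in the other wells, and Flnc, filamin C, at 119 and 351 against 145 and 369. Tuba4a, an alpha tubulin, stood at 101 and 450 CPM in members and 175 and 336 in the other wells. Some named genes were further apart in the members than in the other wells: Mlip, a lamin-interacting protein of muscle, had 138 and 5.45 CPM in members and 38.7 and 30.5 in the other wells, and Trim63, a muscle ubiquitin ligase, 196 and 23.6 CPM against 108 and 76.4. Each is a difference of 2 libraries with no replicate.

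Among endothelial genes, the levels over the days differed by gene. Emcn varied little, from 189 to 223 CPM. Pecam1 ran from 184 CPM on day 1 to 96.3 on day 2 and 29.6 on day 3, whereas in capillary-like wells it ran from 65.2 to 42.7 and 36.5. Its well medians were closer together, at 23.1, 39.7 and 20.3 CPM, and the highest day 1 well held 1218 CPM. Nppa, the atrial natriuretic peptide, was lowest on day 2 in members and other wells, at 82, 16 and 135 CPM in members and 175, 14 and 94.4 CPM in the other wells.

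Ino80, the gene that the series names, was not set apart in the members. It stood at 2318 (2280 to 2357), 4591 (4518 to 4665) and 1402 (1378 to 1428) CPM in members of days 1, 2 and 3, at 2352, 4288 and 1982 CPM in capillary-like wells and at 2846, 5126 and 915 CPM in the other wells. It was at 20 CPM in 30 of 30 members on day 1, 14 of 14 on day 2 and 15 of 21 on day 3, where the median member held 60.6 CPM and the highest 4574 CPM. Its mean log2 ratio was -0.14 to capillary-like and 0.05 to other wells. Esr1, the oestrogen receptor, stood at 371, 468 and 14.4 CPM in members and at 499, 427 and 31.7 CPM in the other wells.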

How the data were processed

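Per the labels, cells were imaged in nanowells and wells with 1 Hoechst-positive, propidium iodide-negative cell were taken into polyA RNA libraries; no doublets were called here. The authors deposited whole-number read counts, not normalized, for genes by wells. Cutadapt, STAR, featureCounts and the build mm10 are listed per the submitters' processing notes, with versions, annotation and strand setting not given in the sources used here. Of 55401 mouse gene identifiers, 55141 matched GENCODE M21, which gave symbols and positions.

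Kept wells had at least 1000 counts and 300 genes. For each class of wells and library, counts were summed and set against the sum of all nuclear-encoded genes (CPM). CPM have exact Poisson and shares exact Clopper-Pearson 95% intervals; among 15 named higher genes the widest interval in a library was 17.9% of the value (Bace2). Days have 1 library each and cells are not replicates; comparisons of members with other wells were made within each library, but the members were chosen by transcripts of the same wells. No test was made and no p-value is given.

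Members, lists and rules were chosen with earlier results of these data known. The named genes are the 12 highest and 12 lowest per comparison (8 and 8 for day 2 against day 1) by mean log2 ratio, at a mean of at least 20 CPM, detected in 25% or more of the higher class's wells, with no well giving over 25% of its counts there, and the same direction in every library and in the mean of per-well CPM; rule and capillary gate genes were left out, as were Rik and Gm-number symbols and mitochondrial or ribosomal genes. List medians over measured genes leave out genes under the CPM filter, so medians over whole lists stand beside many of them. A few genes that the rule or lists name are not reported here. Other genes are printed as members of the fixed lists. No library had 10 wells both with and without Npr3, the minimum set first, so 3 were allowed, a choice made after seeing the data. Of 71 named genes, 21 overlap another gene's exons, 18 of them on the opposite strand (Adh1, Fhod3, Hmcn1, Timp4, Tuba4a and Vcam1 among those printed with values); with no strand setting given, their reads cannot be told from the partner's. Alternatives varied the marker, ceiling and capillary limits, the scaling, the CPM filter, the mean of per-well CPM, thinning and leaving out each library. Scripts used Python 3.11.15, numpy 2.4.6, pandas 2.3.3 and scipy 1.17.1, and were tested on simulated counts.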

Additional observations from a re-analysis of the deposited data

Results flagged for a closer look

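The tables also count 2 added sequences, EGFP and 3xFlag, that none of the comparisons use. EGFP had 84 counts in the members of day 2, 83 of them in 1 well, and 5 counts in 1 member of day 3, both above the 3 counts taken as the limit that a count of 0 allows. In the members of day 1 it had 3 counts. In the other wells EGFP had 339, 192 and 172 counts on days 1, 2 and 3, in 33, 33 and 25 wells. 3xFlag had 2, 0 and 2 counts in the members of the 3 libraries.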

How the results depend on the processing

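The number of members kept within 1.5 times of 65 under all 5 alternatives (91 at 10 CPM, 48 at 50 CPM, 57 with ceilings of 500 CPM, 65 with stricter limits on wells and 69 after thinning, 55 of them members in both). Counts of genes at least 2-fold apart depended on the filter and on the number of libraries. Against capillary-like wells the count of 468 became 269 with mitochondrial genes in the total, 711 without the filter, 81 at a mean of at least 50 CPM, and 712 to 917 without 1 library (903, 712 and 917 without days 1, 2 and 3); the share of them that was higher went from 30.1% to 59.8% with median-of-ratios scaling. Against other wells the count of 517 became 293 with mitochondrial genes, 799 with the 39 members that have at least 5 pan-endothelial genes, 793 without the filter, 104 at 50 CPM, and 795 to 939 without 1 library (924, 795 and 939 without days 1, 2 and 3); the higher share went from 38.3% to 64.4% with median-of-ratios scaling and to 54.3% with mitochondrial genes. Between libraries, a mean of at least 50 CPM gave 792 genes for day 2 against day 1 (2908), 613 for day 3 against day 1 (2593) and 780 for day 3 against day 2 (2872); without the filter the last 2 became 4144 and 4412, and with mitochondrial genes in the total their higher shares went from 41.8% to 64.7% and from 43.1% to 61.3%. The Npr3 split (1089) gave 1962, 1669 and 2118 genes without days 1, 2 and 3; its higher share went from 77.7% to 61.2% with the split at 50 CPM and to 57.1% without day 2. Fewer libraries have to share a direction when 1 is left out; the cause of the other changes was not tested. The pan-endothelial median against other wells was 1.13 with the mean of per-well CPM in place of 1.41.

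No named gene of the 3 comparisons with capillary-like wells, other wells or between days 2 and 1 changed direction under the alternatives run. Some of these alternatives could not have reversed a named gene. Leaving out a library or averaging over wells could not, since genes were named only where these already agreed. Changing the CPM filter leaves each ratio as it is. The result therefore bears only on the other alternatives, such as the scaling and the marker limit. Ppp1r14b reversed in the Npr3 split, to -0.93 with the split at 50 CPM. The pan-endothelial median against capillary-like wells reversed from -0.20 to 0.035 with median-of-ratios scaling and to 0.14 with the 39 members. The 39 were chosen by genes of that list, so a rise was built into the value of 0.14. No paired analysis was possible because the study's groups hold 1 library each; members and other wells were compared within each library, without a test, since the wells' own transcripts chose them.

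Limits: members were few, 14 to 30 per library, so 1 well can hold much of a gene's counts in a library. That share is given for some genes only. A gene printed without it, such as Bace2, Fabp5, Ece1, Ctsh or Plvap, can also rest on few wells in a library. A count of 0 over the members allows up to 0.166 CPM. Classes were cut by thresholds, 26 members had fewer than 5 pan-endothelial genes, and every member held cardiomyocyte RNA. Day and genotype cannot be told apart.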
